A study of Homo sapiens with 9 samples.

Results

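The zinc finger genes of chromosome 19 were taken as the protein-coding genes annotated on this chromosome (GRCh38) whose symbol is ZNF, ZFP or ZSCAN followed by a digit. This rule gave 261 of the 60660 rows of the count matrix, of which 249 were ZNF, 5 ZFP and 7 ZSCAN genes. All were measured by RNA-seq in 9 libraries of OVCAR3, a cell line derived from a high-grade serous ovarian carcinoma. Control cells had no CTCFL treatment and, by the study's methods, carried a LacZ plasmid, CTCFL-OE cells a plasmid (pCpGfree-vitroHBORIS, 2 µg, collected after 48 h) that expresses CTCFL, and CTCFL-KD cells were treated with siRNA against CTCFL. CTCFL, also called BORIS, is a testis protein related to CTCF that is switched on again in many tumors. There were 3 biological replicates in each group, each pooled from 3 technical replicates, and the knockdown RNA came from earlier experiments, so that the treatment and the experiment cannot be told apart in CTCFL-KD. Both comparisons with Control use the same 3 Control libraries.

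Most genes of this kind encode proteins with tandem C2H2 fingers that read DNA and a KRAB domain at the amino end. The KRAB domain binds TRIM28, which brings in the methyltransferase SETDB1 and HP1 proteins, and this complex is best known for silencing transposable elements. The genes multiplied by tandem duplication, which left them in clusters along the chromosome. ZSCAN proteins carry a SCAN domain, which mediates pairing between such proteins. In the translated canonical transcripts, 258 of the 261 members held at least 1 C2H2 pattern, with a median of 12 and a maximum of 39 in ZNF729. The 3 members without the pattern were ZFP36, whose fingers are of the CCCH type, and the readthrough genes ZNF625-ZNF20 and ZNF816-ZNF321P.

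Bases of 6 promoters are shown as examples of members called and not called in CTCFL-KD. ZFP82, ZNF382 and ZNF793 were near 0 in Control and rose in CTCFL-KD, and ZNF146 lies in the same stretch of the chromosome and was not called. ZNF614 and ZNF350 are close neighbors of which only ZNF614 was called. Each run holds the 250 bases before the first start site listed in RefSeq (GRCh38.p14), 5′ to 3′, and the capitals mark CG dinucleotides. GENCODE, which gave the gene positions used here, can start a gene further upstream: the runs of ZFP82 and ZNF793 lie outside the gene, that of ZNF350 overlaps it by 16 bases, and those of ZNF382, ZNF146 and ZNF614 lie inside it.
ZFP82, chr19:36418645-36418894, minus strand: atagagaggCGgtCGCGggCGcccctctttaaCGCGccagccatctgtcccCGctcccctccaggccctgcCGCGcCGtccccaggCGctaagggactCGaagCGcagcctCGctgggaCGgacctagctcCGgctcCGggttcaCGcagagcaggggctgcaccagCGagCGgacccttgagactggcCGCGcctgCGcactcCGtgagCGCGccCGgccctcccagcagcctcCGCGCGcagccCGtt
ZNF382, chr19:36605063-36605312, plus strand: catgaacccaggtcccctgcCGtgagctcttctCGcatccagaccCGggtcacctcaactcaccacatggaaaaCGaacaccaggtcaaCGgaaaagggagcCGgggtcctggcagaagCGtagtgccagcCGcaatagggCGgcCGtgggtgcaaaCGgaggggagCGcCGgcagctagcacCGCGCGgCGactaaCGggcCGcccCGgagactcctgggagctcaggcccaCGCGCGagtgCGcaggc
ZNF793, chr19:37506689-37506938, plus strand: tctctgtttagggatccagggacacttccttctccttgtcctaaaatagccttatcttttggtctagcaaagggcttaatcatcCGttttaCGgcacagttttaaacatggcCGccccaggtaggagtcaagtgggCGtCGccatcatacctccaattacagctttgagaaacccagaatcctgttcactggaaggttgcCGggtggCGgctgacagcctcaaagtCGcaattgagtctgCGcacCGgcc
ZNF146, chr19:36214856-36215105, plus strand: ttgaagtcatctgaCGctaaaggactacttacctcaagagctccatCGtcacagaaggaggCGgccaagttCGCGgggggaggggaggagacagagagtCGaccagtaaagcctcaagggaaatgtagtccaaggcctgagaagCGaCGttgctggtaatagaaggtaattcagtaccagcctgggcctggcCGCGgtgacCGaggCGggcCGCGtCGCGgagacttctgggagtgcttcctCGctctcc
ZNF614, chr19:52028380-52028629, minus strand: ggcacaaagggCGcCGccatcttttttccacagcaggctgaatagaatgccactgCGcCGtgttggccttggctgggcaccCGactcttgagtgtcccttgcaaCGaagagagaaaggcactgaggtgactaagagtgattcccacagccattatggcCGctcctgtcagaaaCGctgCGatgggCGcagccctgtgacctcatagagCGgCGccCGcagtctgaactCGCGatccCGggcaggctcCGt
ZNF350, chr19:51986841-51987090, minus strand: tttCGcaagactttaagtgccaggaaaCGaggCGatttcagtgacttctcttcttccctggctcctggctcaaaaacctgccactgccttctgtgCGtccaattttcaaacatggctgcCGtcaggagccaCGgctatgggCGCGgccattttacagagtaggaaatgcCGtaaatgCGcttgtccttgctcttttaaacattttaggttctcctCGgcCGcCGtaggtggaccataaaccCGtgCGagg
These promoters held 31, 24, 10, 17, 17 and 15 CG dinucleotides, in the order printed. Of the 261 members, 227 had a RefSeq promoter entry (the 250 bases overlapped the GENCODE gene in 125 and lay inside it in 47 of these), with a median of 16 CG dinucleotides in 250 bases and a range from 1 to 39, against a median of 11 over the 35116 promoter entries of all genes. The letters AGGGGGC, a stretch of the CTCF consensus, were found on either strand in 37 of the 227 member promoters (16.3%) and in 13.3% of all promoters of this length.

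In the 9 libraries, total counts ranged from 14332622 to 24490080. A count of 0 allows up to 3 counts, which is 0.117 to 0.271 counts per 1000000 (CPM) depending on the library, and this limit covers counting error only. CTCFL itself had 6, 9 and 10 counts in Control, while CTCFL-OE reached 36, 34 and 72 and CTCFL-KD 0, 1 and 0. Its log2 fold change was 2.73 ± 0.48 (SE) in CTCFL-OE (edgeR quasi-likelihood test, adjusted p = 0.0287) and -3.79 ± 1.06 in CTCFL-KD (adjusted p = 0.0162). The first call was lost without any of the Control libraries and the second without CTCFL-KD replicate 3. All 9 epithelial and ovarian carcinoma markers, PAX8 and EPCAM among them, had over 3 counts in every library, and their summed level was 5281 to 5397 CPM in Control, 4468 to 4969 in CTCFL-OE and 8873 to 14270 in CTCFL-KD. The higher sum was carried mostly by KRT8, KRT18 and MUC16, and EPCAM was also called higher in CTCFL-KD (log2 fold change 1.185, edgeR adjusted p = 0.00744). CDH1 was above Control in all 3 CTCFL-KD libraries (log2 fold change 0.85, adjusted p = 0.0134). In contrast, KRT7 was called lower in CTCFL-KD (log2 fold change -1.12, edgeR adjusted p = 0.0164) and WT1 was below Control in all 3 CTCFL-KD libraries (log2 fold change -0.63, adjusted p = 0.0272). Of 10 fibroblast markers, only COL1A1 had over 3 counts in every library, and the list summed to 28.0 to 33.8, 24.99 to 44.2 and 37.8 to 43.0 CPM. COL1A2, at 0 in the 3 Control libraries, was at 14.1, 14.2 and 13.5 CPM in CTCFL-KD, whereas COL1A1 was at 32.0, 30.9 and 26.4 CPM in Control and at 26.1, 22.4 and 21.3 in CTCFL-KD (log2 fold change -0.36). POSTN was also called higher in CTCFL-KD (log2 fold change 2.74, edgeR adjusted p = 0.00295), and COL3A1, not tested, had 8, 9 and 8 counts there and 0 in the 6 other libraries. CTCFL-KD replicate 1 stood apart from the other CTCFL-KD libraries, with a TMM factor of 0.775 against 1.02 in both others. Mitochondrial reads took 6.16 to 6.52% of counts in Control, 7.40 to 14.9% in CTCFL-OE and 7.80 to 11.8% in CTCFL-KD. The part of the marker levels and of the mitochondrial share in the results below was not tested.

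A filter on low counts (filterByExpr) kept 213 of the 261 members. Of the 48 others, 26 had 3 counts or fewer in every library, of which 7 were at 0 throughout. The highest count among the 48 was 21, in ZNF880. Among these filtered members, ZNF677 had 0 counts in the 6 Control and CTCFL-OE libraries and 5, 11 and 13 in CTCFL-KD. ZNF135 had 0, 0 and 1 counts with Control, 1, 0 and 0 with CTCFL-OE and 6, 18 and 15 with CTCFL-KD. In both genes the CTCFL-KD libraries lay above the 6 others, as they did in 12 of the 48 (41 of which had a count in some library), beside 3.97% of the 20040 genes with a count that the filter removed. The removed genes had fewer reads, with a median of 5 counts summed over the 9 libraries against 11 in the 41 members. These 2 genes were chosen after their values were seen. ZNF536, which encodes a repressor known from neurons, had 2 counts in CTCFL-OE replicate 1 and 0 in the other 8 libraries.

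Per length, in transcripts per 1000000 (TPM), the members with the highest level in Control were ZNF146, ZFP36, ZNF317, ZNF121 and ZNF787. ZNF146, which encodes a protein made of fingers alone, was at 138 ± 9.27 TPM (SD, n = 3). ZFP36, tristetraprolin, which marks messages with AU-rich elements for decay, was at 48.4 ± 0.91 TPM. ZNF317 followed with 42.3 ± 2.30 TPM. Among the 213 tested members the median level in Control was low: 0.852 TPM in the members that were called higher in CTCFL-KD and 2.71 TPM in the rest, where the Control libraries enter both the level and the call. Summed over all members and scaled by TMM, the level was 1553 to 1622 CPM in Control and 1560 to 1651 CPM in CTCFL-OE, whereas the CTCFL-KD libraries reached 2144, 2613 and 2623 CPM. When the libraries were scaled by their totals alone, CTCFL-KD replicate 1 reached 1659 CPM, inside the Control range of 1631 to 1698, whereas replicates 2 and 3 reached 2647 and 2661. Summed per length, the members took 897, 963 and 948 TPM with Control, 924, 852 and 670 TPM with CTCFL-OE and 711, 1298 and 1358 TPM with CTCFL-KD. On this scale CTCFL-KD replicate 1 lay below every Control library.

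In CTCFL-OE, 1 zinc finger gene of chromosome 19 was called and the median member was at its Control level. A gene was called here when its log2 fold change was beyond 1 with an adjusted p under 0.1 (edgeR quasi-likelihood test, Benjamini-Hochberg over all 17794 tested genes). Of the 213 tested members, 1 was called higher and 0 lower, beside 1.37% and 0.702% of all tested genes. DESeq2 gave the same numbers, and at an unadjusted p under 0.05 edgeR had 15 members higher and 7 lower, beside 11.0% and 6.72% of all tested genes. The member called was ZNF506, with 14, 21 and 9 counts in Control and 33, 31 and 21 in CTCFL-OE (log2 fold change 1.14 ± 0.30 SE, adjusted p = 0.0927). Its 3 CTCFL-OE libraries lay above the 3 Control libraries, at 1.29 to 1.62 against 0.456 to 0.816 CPM. The call was lost when any Control library was left out, and also without CTCFL-OE replicate 2 or 3 or CTCFL-KD replicate 2 or 3. The median log2 fold change of the tested members was 0.02, with the middle of the distribution between -0.19 and 0.32 (quartiles), and the median over all tested genes was -0.01. Without overlap between the groups, CTCFL-OE was above Control in 37 members and below it in 31, beside 16.3% and 20.8% of all tested genes.

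In CTCFL-KD, zinc finger genes of chromosome 19 were called higher more often than the tested genes as a whole, and almost none was called lower. With an adjusted p under 0.05, 73 of the 213 tested members were called higher and 1 lower, beside 15.3% and 7.94% of all tested genes (edgeR quasi-likelihood test). As shares, 34.3% of the tested members were called higher and 0.469% lower. The median log2 fold change over the tested members was 0.70, with quartiles of 0.15 and 1.30, and it was 0.08 over all tested genes. In 171 of the 213 the estimate was above 0. The 3 CTCFL-KD libraries lay above all 3 Control libraries in 114 members and below them in 13, beside 28.7% and 27.6% of all tested genes. Among the 73 members called higher, the libraries of the groups did not overlap in any, and the median log2 fold change was 1.70. As the RNA came from whole cultures, a change in the share of cells expressing a gene and a change in its RNA per cell cannot be told apart. Of the 213, 21 members, 17 of them among the 73, reached the level of the filter in fewer than 3 of the Control and CTCFL-OE libraries, so that they were tested only because of their reads in CTCFL-KD. With such genes left out, an alternative chosen after seeing the data, 56 of 192 members were higher (29.2%), beside 13.4% of the 16966 remaining genes, and the members' median was 0.61. Without CTCFL-KD replicate 1 the calls numbered 85 higher and 1 lower. With the libraries scaled by their totals, 61 were called higher and 1 lower, the median of the members was 0.56 and that of all tested genes moved from 0.08 to -0.09.

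**Figure D1:**
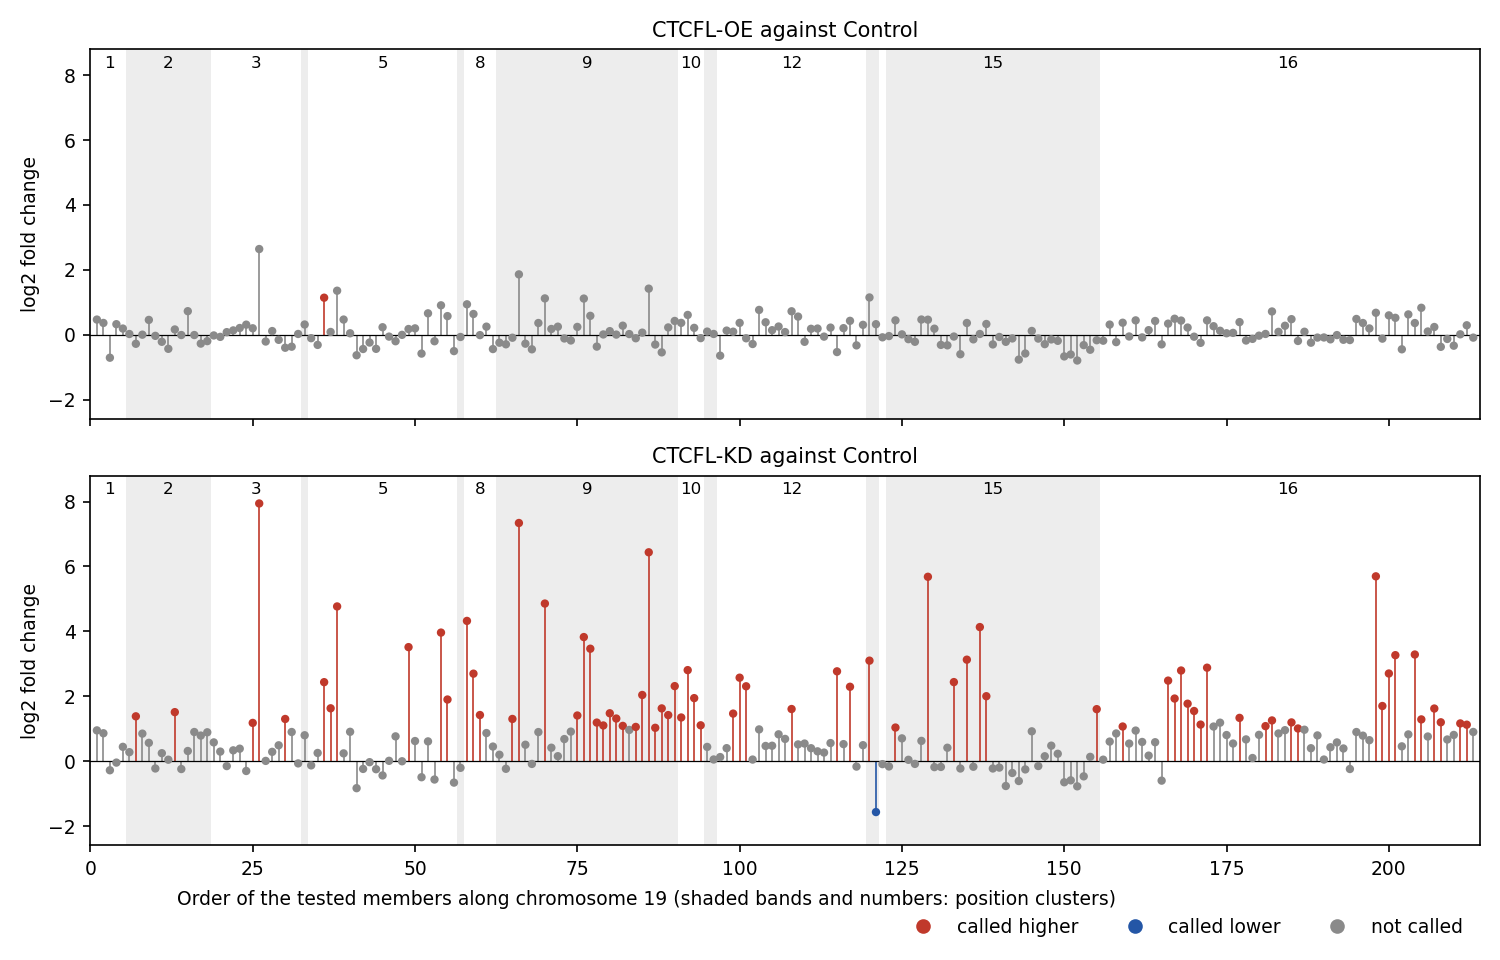
Log2 fold change (vertical axis) of the 213 tested members in their order along chromosome 19 (horizontal axis), for CTCFL-OE (upper panel) and CTCFL-KD (lower panel) against Control. Each stem is 1 gene, shaded bands and numbers mark position clusters, and color marks the call. The upper panel has 1 colored member (ZNF506) and the lower has 73 called higher and 1 called lower (ZNF114), and the tallest stems, such as ZNF844, are fitted values of genes at 0 in Control.

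The share called higher and the median, 34.3% and 0.70 in the members, were smaller in other gene groups. Genes tested only because of their reads in CTCFL-KD are counted in every group here. Of the zinc finger genes on other chromosomes chosen by the same symbol rule, 257 of 297 were tested, and 27 were called higher (10.5%) and 8 lower, with a median log2 fold change of 0.18. Of the other protein-coding genes on chromosome 19, 775 of 1211 were tested, and 171 were called higher (22.1%) and 42 lower, with a median of 0.33. These groups differed in base composition: the median transcript GC content was 42.5% in the members, 45.3% in the zinc finger genes of other chromosomes and 61.1% in the other genes of chromosome 19. With the length and GC trend of each library removed, the members' median was 0.67. The medians of the other groups under this setting are not given here. The part of base composition in the gap between the groups was therefore not tested. No test of the difference between the groups was made, and the counts are a description. In CTCFL-OE the same groups had medians of 0.02, -0.01 and 0.02.

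**Figure D2:**
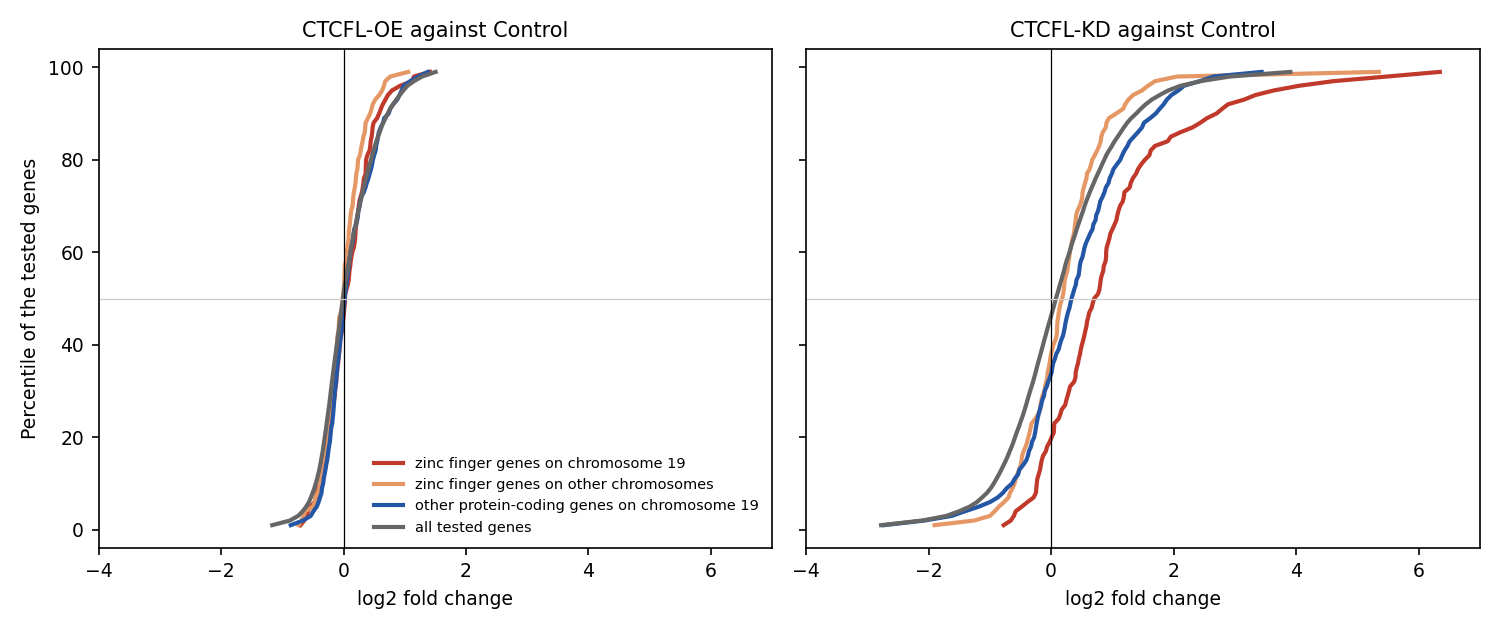
Percentiles 1 to 99 (vertical axis) of the log2 fold change (horizontal axis) of tested genes in 4 groups, for CTCFL-OE (left) and CTCFL-KD (right) against Control. In CTCFL-OE the lines cross 50% between -0.01 and 0.02, whereas in CTCFL-KD the zinc finger genes of chromosome 19 cross it at 0.70 and all tested genes at 0.08.

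The members with the largest estimates in CTCFL-KD had almost no reads in Control. Of the 73 members called higher, 7 had 3 counts or fewer in each Control library. These 7, and ZNF382, ZNF302 and ZNF528 as well, reached the level of the filter only with the CTCFL-KD libraries counted, so they entered the test through the group in which they are high, and their values are given as a description. ZNF793 (chr19:37506939-37548762, plus strand) had 1, 1 and 2 counts in Control, compared with 4, 1 and 5 for CTCFL-OE and 46, 120 and 114 for CTCFL-KD. The ratio of CTCFL-KD to Control was 99.2, with an exact 95% counting interval from 38.3 to 367. ZFP82 (chr19:36383120-36418644, minus strand) had 0 counts in all Control libraries, while CTCFL-OE had 0, 0 and 1 and CTCFL-KD 14, 15 and 20. Against the limit of 3 counts per Control library its mean was at least 7.76-fold higher. The 3 CTCFL-KD libraries thus stood clear of the 6 others in both genes.

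ZNF614 (chr19:52012765-52030240, minus strand) had 2, 0 and 2 counts in Control, while CTCFL-OE reached 1, 2 and 2 and CTCFL-KD 20, 66 and 84, a ratio of 60.3 (23.1 to 224) to Control. ZNF418 (chr19:57921882-57935402, minus strand) had 1, 1 and 0 counts, then 0, 1 and 2, then 16, 44 and 30 in the same order of groups, a ratio of 63.8 (17.2 to 535). ZNF681 (chr19:23739195-23758891, minus strand) went from 3, 1 and 0 counts in Control to 10, 20 and 19 in CTCFL-KD, a ratio of 17.4 (6.37 to 66.3). In each of these genes CTCFL-OE stayed at 4 counts or fewer and the lowest CTCFL-KD library was above every other library. ZNF93 (chr19:19900913-19963464, plus strand), a KRAB protein that represses LINE-1 elements in primates, had 0, 2 and 0 counts with Control, 1, 1 and 3 with CTCFL-OE and 12, 15 and 19 with CTCFL-KD. Its ratio to Control was 32.6 (8.53 to 277). Like the genes above, these 4 were tested only because of their reads in CTCFL-KD, so their values are a description.

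ZNF844 (chr19:12064731-12081565, plus strand) had 0 counts in Control, compared with 1, 0 and 1 for CTCFL-OE and 9, 38 and 31 for CTCFL-KD, at least 11.4-fold above the limit in Control. It too was tested only because of its reads in CTCFL-KD, so its values are a description. Of the 75-base windows of its transcripts, 44.7% also occur in a gene model without a symbol, so the share of its reads that was counted depends on how the authors treated such reads.

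ZNF382, ZNF302 and ZNF528 had a few reads in Control. They too were tested only because of their reads in CTCFL-KD, so the values below are a description. ZNF382 (chr19:36604817-36634114, plus strand), a KRAB repressor described as silenced by promoter methylation in several carcinomas, had 0.0501, 0.311 and 0.304 CPM in Control, while CTCFL-OE reached 0.547, 0.627 and 0.307 and CTCFL-KD 4.51, 8.32 and 7.34. Its log2 fold change in CTCFL-KD was 4.86 ± 0.45. ZNF302 (chr19:34677639-34686397, plus strand) was at 0.301, 0.505 and 0.304 CPM with Control, 0.684, 0.941 and 0.553 with CTCFL-OE and 7.76, 7.91 and 7.39 with CTCFL-KD, a log2 fold change of 4.32 ± 0.29. ZNF528 (chr19:52397849-52418412, plus strand) was at 0.25, 0.0777 and 0.152 CPM in Control and 1.71, 3.09 and 3.51 in CTCFL-KD, which gave a log2 fold change of 4.13 ± 0.44. The CTCFL-OE libraries of ZNF528, at 0.137, 0.209 and 0.123 CPM, overlapped with Control, whereas CTCFL-KD replicate 1 was the lowest of its group in ZNF382 and ZNF528.

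**Figure D3:**
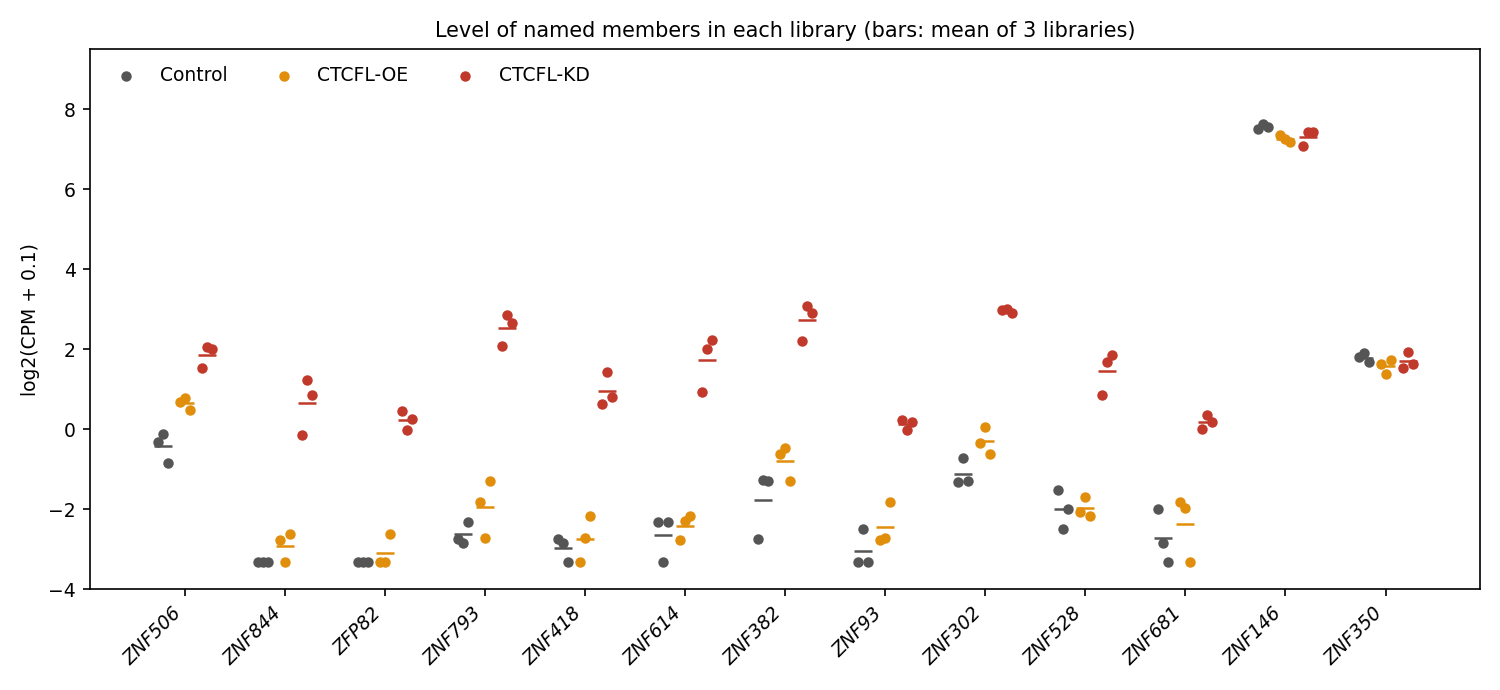
Level of 13 members in each library, as log2(CPM + 0.1) on the vertical axis, with Control, CTCFL-OE and CTCFL-KD side by side for each gene (points: libraries, bars: mean of 3). The 3 CTCFL-KD points lie above the 6 others in the first 11 genes, while in ZNF146 and ZNF350 they do not.

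Comparing CTCFL-KD directly with CTCFL-OE avoids the shared Control libraries. Of the 213 tested members, 67 were higher and 1 lower in CTCFL-KD, beside 10.6% and 6.42% of all tested genes (adjusted p under 0.05, edgeR quasi-likelihood test), and the median log2 fold change was 0.62. Both comparisons use the same 3 CTCFL-KD libraries. Without the members tested only because of their reads in CTCFL-KD, 50 of 192 were higher (26.0%), beside 8.93% of all genes left. The 3 CTCFL-KD libraries lay above the 6 others in 97 of the tested members (45.5%), beside 17.5% of all tested genes. ZNF506, the member called in CTCFL-OE, was higher again in CTCFL-KD, with 31, 68 and 72 counts, a log2 fold change of 2.43 ± 0.29 against Control (adjusted p = 0.000118) and of 1.29 ± 0.27 against CTCFL-OE (adjusted p = 0.00486).

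ZNF114 was the only member called lower in CTCFL-KD. It had 16, 21 and 15 counts in Control, compared with 15, 19 and 22 for CTCFL-OE and 4, 5 and 3 for CTCFL-KD. The log2 fold change was -1.57 ± 0.42 against Control (edgeR, adjusted p = 0.0134) and -1.90 ± 0.42 against CTCFL-OE (adjusted p = 0.007). Without CTCFL-KD replicate 3 it was not called against Control. Its mean was below 1 CPM in both Control and CTCFL-KD, the level required for naming in one of them, and it was named after its values were seen.

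Members were grouped along the chromosome by ending a cluster wherever the next start lay over 1 Mb away, which gave 16 clusters, of which 9 held at least 5 tested members. In cluster 9, from ZNF565 to ZNF573 (chr19:36182276-37817300), 18 of 28 tested members were called higher, beside 15.3% of all tested genes. The median log2 fold change was 1.14, and 26 of the 28 estimates were above 0. Without the members tested only because of their reads in CTCFL-KD, 15 of 25 were called (60%), beside 13.4% of all genes left. Cluster 8, from ZNF302 to ZNF792 (chr19:34677639-34964229), had 3 of 5 called higher, ZNF302, ZNF181 and ZNF599, and a median of 1.42, and without ZNF302, tested only because of its reads in CTCFL-KD, 2 of 4 (50%) and 1.14. On the other side of cluster 9, cluster 10 (chr19:39406847-40090943) had all 4 members called higher: ZFP36, ZNF546, ZNF780B and ZNF780A, at log2 fold changes of 1.34, 2.81, 1.94 and 1.10. The ZNF780A call was lost without CTCFL-KD replicate 3.

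The largest cluster, number 16, ran from ZNF628 to ZNF446 (chr19:55476617-58481230) and held 67 members, of which 58 were tested. Here 23 were called higher (39.7%), beside 15.3% of all tested genes, with a median log2 fold change of 0.90 and 56 of the 58 estimates above 0. Without members tested only because of CTCFL-KD, 20 of 55 were called (36.4%), beside 13.4% of all genes left. ZSCAN18, a SCAN-domain gene, had the smallest p of the cluster, with 30, 34 and 31 counts in Control, while CTCFL-OE had 41, 46 and 33 and CTCFL-KD 183, 247 and 205. Its log2 fold change was 3.27 ± 0.23 (edgeR, adjusted p = 4.98e-06). ZSCAN18 shares 45.2% of its 75-base windows with ZNF135, the filtered gene above, so reads of the pair may not be fully separated. ZNF274, which brings SETDB1 to the 3′ ends of zinc finger genes, was at 8.56, 8.74 and 7.70 CPM with Control, 11.4, 14.2 and 13.1 with CTCFL-OE and 10.9, 17.5 and 15.7 with CTCFL-KD. Both treated groups lay above Control, with log2 fold changes of 0.63 ± 0.20 (adjusted p = 0.154) and 0.82 ± 0.20 (adjusted p = 0.00883), the second short of the fold threshold. ZNF787 was at 28.9 to 35.9 CPM in Control and at 55.9, 26.8 and 28.2 in CTCFL-KD, where replicate 1 alone lay above Control (log2 fold change 0.17 ± 0.26, adjusted p = 0.637).

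Cluster 15 (chr19:51571283-53580269) had 33 tested members, of which 7 were called higher (21.2%), beside 15.3% of all tested genes, with a median log2 fold change of -0.09. Without the members tested only because of their reads in CTCFL-KD, ZNF614 and ZNF528 among them, 4 of 30 were called (13.3%), close to the 13.4% of all genes left. ZNF614 there lies between ZNF615 and ZNF432, whose log2 fold changes were 0.62 (adjusted p = 0.235) and -0.18 (adjusted p = 0.547). ZNF350, known as ZBRK1, a partner of BRCA1, starts a short way before them and was at 3.41, 3.61 and 3.09 CPM in Control, compared with 3.01, 2.51 and 3.20 for CTCFL-OE and 2.80, 3.69 and 3.01 for CTCFL-KD, where the 3 groups overlapped (log2 fold change in CTCFL-KD -0.09 ± 0.21). At the far end, ZNF331, an imprinted gene described as a tumor suppressor, was at 28.7, 32.2 and 30.7 CPM in Control, while CTCFL-OE reached 30.3, 28.3 and 22.9 and CTCFL-KD 68.5, 102 and 108, a log2 fold change of 1.60 ± 0.21 (adjusted p = 0.000224). Of the 33, the 3 CTCFL-KD libraries lay above Control in 10 and below it in 7, beside 28.7% and 27.6% of all tested genes. ZNF845 was one of those below, at 9.97, 9.13 and 8.81 CPM with Control, 6.16, 5.85 and 5.53 with CTCFL-OE and 4.69, 6.84 and 6.13 with CTCFL-KD. The knockdown estimate, a log2 fold change of -0.65 ± 0.19, passed the adjusted p (0.0196) but not the fold threshold, and it was named after its value was seen.

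In cluster 5 (chr19:19668796-24129968), 6 of 23 tested members were called higher, ZNF506, ZNF253, ZNF93, ZNF43, ZNF681 and ZNF726, and the median log2 fold change was 0.24. ZNF93, ZNF43 and ZNF681 were tested only because of their reads in CTCFL-KD, and without such members 3 of 19 were called (15.8%), beside 13.4% of all genes left, with a median of -0.0044. ZNF91, which silences SVA elements and lies in the same cluster as ZNF93, was at 0.401, 0.894 and 0.810 CPM in Control, compared with 1.19, 1.31 and 0.860 for CTCFL-OE and 0.361, 1.60 and 1.15 for CTCFL-KD. Its CTCFL-KD libraries lay on both sides of Control (log2 fold change 0.61 ± 0.46, adjusted p = 0.321). ZNF675, an inhibitor of TRAF6 signaling, was at 6.81, 6.06 and 6.53 CPM in Control and 1.71, 5.35 and 5.75 in CTCFL-KD, so that replicate 1 alone was far below (log2 fold change -0.57 ± 0.37, adjusted p = 0.242). This cluster also held 14 of the 48 members that were filtered out.

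In clusters 2 and 3, 2 of 13 and 3 of 14 tested members were called higher, beside 15.3% of all tested genes. ZNF844 above was one of them, and without it cluster 3 had 2 of 13 (15.4%), beside 13.4% of all genes left. The share of cluster 2, also 15.4%, was likewise close to that of all genes. ZNF266 had the smallest p in cluster 2, at 10.4, 9.21 and 10.4 CPM in Control, while CTCFL-OE reached 10.3, 13.1 and 10.1 and CTCFL-KD 30.7, 29.5 and 25.4, a log2 fold change of 1.51 ± 0.18 (edgeR, adjusted p = 0.000108). ZNF317 and ZNF121 in the same cluster, both among the highest in Control, had log2 fold changes of -0.23 ± 0.16 and 0.31 ± 0.19 in CTCFL-KD, neither of which passed the test. In CTCFL-OE, ZNF121 was at 83.7, 120 and 127 CPM against 63.2 to 70.0 in Control (log2 fold change 0.73 ± 0.19, adjusted p = 0.101). In cluster 12, 6 of 23 were called higher, beside 15.3% of all tested genes. Without members tested only because of CTCFL-KD, 4 of 19 were called (21.1%), beside 13.4% of all genes left. ZNF283 had the smallest p of this cluster, with 10, 20 and 17 counts in Control, while CTCFL-OE had 22, 15 and 16 and CTCFL-KD 45, 75 and 79 (log2 fold change 2.57 ± 0.26, edgeR adjusted p = 4.33e-05). ZNF224, a KRAB protein known to work with WT1, lies in this cluster and did not pass (log2 fold change 0.52 ± 0.24, adjusted p = 0.113), and 47.7% of its windows occur in ZNF225-AS1. In cluster 1, 0 of 5 were called by edgeR, and 2 of the 5 had an unadjusted p under 0.05, beside 48.3% of all tested genes. Both, ZNF554 (log2 fold change 0.95, adjusted p = 0.00428) and ZNF555 (0.86, adjusted p = 0.0372), passed the adjusted p short of the fold threshold, and they were named after their values were seen. ZNF473, which takes part in histone message processing, stood alone on its stretch, and its log2 fold change was -0.08 ± 0.17 for CTCFL-OE and -0.09 ± 0.17 for CTCFL-KD.

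**Figure D4:**
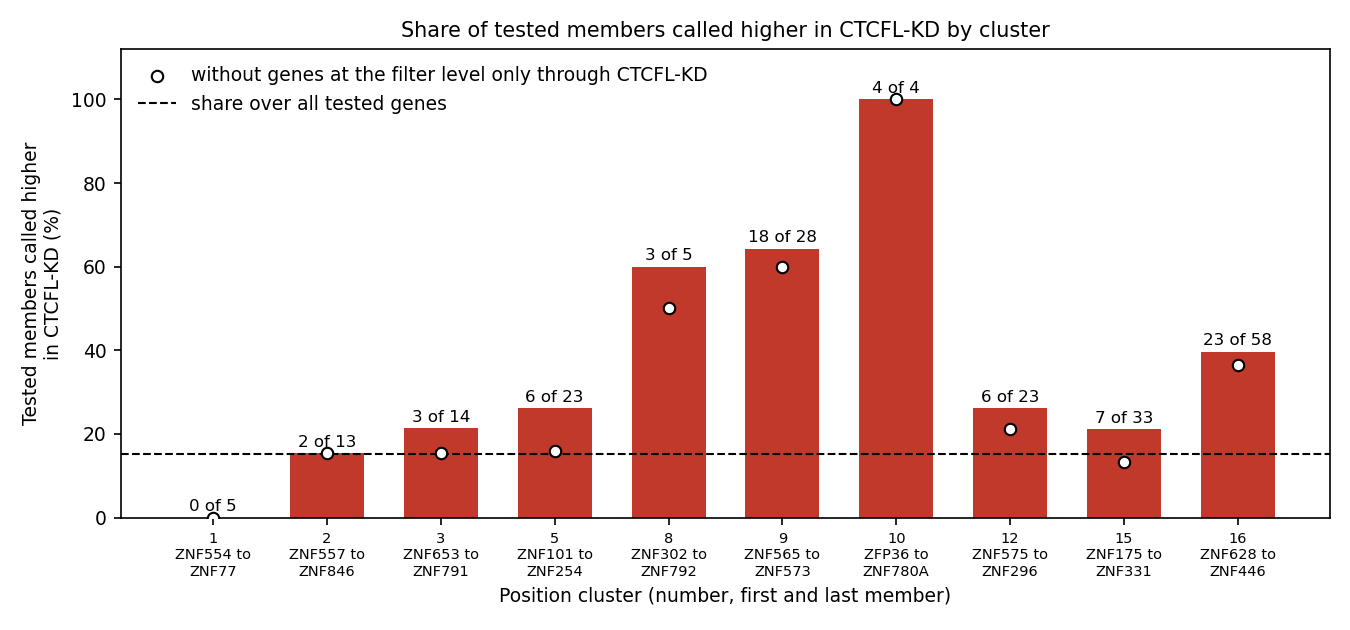
Percent of tested members called higher in CTCFL-KD (vertical axis) in each position cluster with at least 4 tested members (horizontal axis, numbered in order along the chromosome with first and last member), with the number called above each bar. The tallest bars are clusters 8, 9, 10 and 16 (60%, 64.3%, 100% and 39.7%), clusters 3, 5, 12 and 15 lie between 21.2% and 26.1%, cluster 2 is at the dashed line of all tested genes (15.3%), and cluster 1 has 0 of 5. Open circles leave out members at the filter level only through CTCFL-KD, where clusters 8, 9, 10 and 16 are at 50%, 60%, 100% and 36.4%, and clusters 2, 3, 5 and 15 between 13.3% and 15.8%, close to the 13.4% of all genes left.

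Reads can be shared between duplicated genes: 22 of the 213 tested members, and 8 of the 73 called higher, had over 20% of their 75-base windows in another gene. Without these members the median log2 fold change in CTCFL-KD was 0.67.

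Sequence features had close medians in the members called higher in CTCFL-KD and in the other tested members. The median number of CG dinucleotides in the 250 bases before the start was 18 (quartiles 12 and 25) in the 65 called members with a promoter entry and 16 (12 and 20) in the 123 others. The letters AGGGGGC occurred in 13.8% and 15.4% of them. Median transcript GC content was 42.1% and 42.8%, exon length 6266 and 5526 bases, and the number of C2H2 patterns 13 and 12. These values are given as a description, without a test, since neighboring genes share sequence.

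Genes of the complex through which KRAB proteins act, and of the DNA methylation machinery, were followed as a list of 22, all tested, which includes the member ZNF274. In CTCFL-OE 0 of the 22 were called by edgeR or by DESeq2, and 1 had an unadjusted p under 0.05 in edgeR, beside 17.7% of all tested genes. In CTCFL-KD 3 were called lower and none higher, beside 7.94% and 15.3% of all tested genes. At an unadjusted p under 0.05 there were 13 of the 22, beside 48.3% of all tested genes, and the list had a median log2 fold change of -0.18 beside 0.08 over all tested genes. The 3 were DNMT3B, a de novo DNA methyltransferase, UHRF1, which guides the maintenance methyltransferase to replicated DNA, and TASOR, a subunit of the HUSH silencing complex. DNMT3B had a log2 fold change of -2.22 ± 0.21 (edgeR, adjusted p = 2.72e-05), UHRF1 of -1.18 ± 0.19 (adjusted p = 0.000779) and TASOR of -1.02 ± 0.30 (adjusted p = 0.0209). By adjusted p without the fold threshold, 7 were lower and 3 higher, beside 16.8% and 21.4% of all tested genes. TRIM28 itself was at 307, 299 and 314 CPM in Control, compared with 265, 284 and 251 for CTCFL-OE and 550, 286 and 277 for CTCFL-KD, where replicate 1 alone was high (log2 fold change 0.27 ± 0.26, adjusted p = 0.422). CTCF was at 77.4, 85.2 and 79.5 CPM in Control, while CTCFL-OE reached 77.9, 68.3 and 64.8 and CTCFL-KD 54.2, 64.0 and 62.8 (log2 fold change -0.42 ± 0.16 in CTCFL-KD, adjusted p = 0.0566).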

How the data were processed

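The deposited values are raw counts per gene, 1 column for each of 9 libraries. Paired-end reads of stranded mRNA libraries were trimmed by the authors (Trimmomatic), mapped on GRCh38 (STAR) and summarised per gene (featureCounts). The submitters' processing notes also name kallisto, with no role. How strand and reads mapping to several genes were handled, and which annotation release was used, is not given in the sources used here. Each library's own file equals its column of the count matrix. Positions, gene types and transcripts came from GENCODE 44 (GRCh38), and promoters from RefSeq (GRCh38.p14), where the first start site of each symbol was used.

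The 9 libraries were fitted together with edgeR 4.0.16 (R 4.3.3; filterByExpr, TMM scaling, robust quasi-likelihood test), and p-values were adjusted by the Benjamini-Hochberg method over all 17794 tested genes. Genes were called at an absolute log2 fold change over 1 with an adjusted p under 0.1 (CTCFL-OE) or 0.05 (CTCFL-KD, and CTCFL-KD against CTCFL-OE). A standard error is the log2 fold change divided by the root of its F statistic. CPM used TMM-scaled library sizes. TPM used summed exon lengths. Fold bounds set a Control library at 0 to 3 counts, and ratios of low counts have exact 95% intervals for counting error only. Scripts were tested on simulated data. Total counts per library (14332622 to 24490080) set the precision.

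Members named in the text were those called in CTCFL-OE, the 10 largest calls in CTCFL-KD in each direction whose 3 libraries lay beyond Control with at least 1 CPM on average in Control or CTCFL-KD, the 5 highest by TPM in Control, the call with the smallest p in each cluster of at least 5 tested members, and members with a known role, with CTCFL, CTCF and TRIM28. Exceptions are stated. The members, lists and tests were chosen with earlier results of these data known.

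The labels give the same replicate numbers in each group. Deviations from the group means of same-numbered libraries correlated at 0.18, 0.115 and 0.113 between Control and CTCFL-KD (over genes). The values were -0.0108, 0.154 and -0.0482 between Control and CTCFL-OE, and 0.0137, 0.0861 and 0.000407 between CTCFL-OE and CTCFL-KD. Libraries with unlike numbers correlated at -0.169 to 0.0534 between Control and CTCFL-KD, and at up to 0.129 between Control and CTCFL-OE. No pairing is stated in the sources used, and the main fits had no replicate term. The replicate block was an alternative only. Alternatives were another scaling, filter or tool (DESeq2 1.42.0), the replicate block, removal of length and GC trends, glmTreat, and leaving out each library.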

Additional observations from a re-analysis of the deposited data

How the results depend on the processing

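In CTCFL-OE, where 1 member (ZNF506) was called, 2 were called higher without the filter on low counts. There were 0 calls with at least 10 counts in every library, with the replicate block, with glmTreat against a log2 fold change of 1, and with total-count scaling, an alternative chosen after seeing the data. Leaving out 1 library gave 0 to 2 calls (0 to 1 higher, 0 to 1 lower), with 2 without CTCFL-OE replicate 1. In CTCFL-KD, calls fell from 74 to 49 (49 higher, 0 lower) with at least 10 counts in every library and to 39 (39 higher, 0 lower) with glmTreat, and 2 members were lower with no threshold on the fold change. The count requirement also leaves fewer genes tested, and the cause of the other differences was not tested. Leaving out 1 library gave 73 to 86 calls (72 to 85 higher, 1 to 2 lower). Of the 73 members called higher, 59 remained so in all 9 of these fits, and 65 remained with the length and GC trend removed. The replicate block, with 72 higher and 1 lower in CTCFL-KD, lost ZNF416 alone. In CTCFL-KD against CTCFL-OE, calls fell from 68 to 42 (42 higher, 0 lower) and 33 (33 higher, 0 lower) under the same count requirement and glmTreat, and were 65 to 77 with 1 library left out. The median log2 fold change of the tested members ran over all alternatives from -0.01 to 0.08 in CTCFL-OE, from 0.56 to 0.82 in CTCFL-KD and from 0.48 to 0.73 in CTCFL-KD against CTCFL-OE. A gap of 2 Mb gave 8 position clusters and a gap of 0.5 Mb gave 21, against 16. The corepressor list had 1 call in CTCFL-KD with glmTreat and 5 without CTCFL-KD replicate 3, against 3. Counting each alternative other than glmTreat in which a gene named by the rule was tested, 0 called values changed sign, 13 lost the call (9 of ZNF506 and 3 of CTCFL in CTCFL-OE, 1 of CTCFL in CTCFL-KD) and 2 gained it (ZFP36 against CTCFL-OE). With at least 10 counts in every library, ZNF506, CTCFL and members near 0 in Control, such as ZNF793, were not tested. These numbers do not cover them under that setting. Low counts limit the precision of the members with 3 counts or fewer in each Control library.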

Other observations

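Zinc finger genes of chromosome 19 whose symbols fall outside the rule were read after the values were seen. MZF1, a SCAN-domain gene near the end of the chromosome, was at 11.8, 12.8 and 11.4 CPM in Control, while CTCFL-OE reached 13.6, 20.6 and 19.5 and CTCFL-KD 15.5, 13.0 and 11.2, and passed the edgeR test in neither comparison (adjusted p = 0.178 and 0.619). ZIK1, within the span of cluster 16, was removed by the filter on low counts and had 3, 9 and 4 counts with Control, 4, 3 and 6 with CTCFL-OE and 7, 26 and 21 with CTCFL-KD. PEG3, an imprinted gene, and its neighbor ZIM2 had 0 counts in all 9 libraries.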
